A study of Homo sapiens with 9 samples.

Results

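The 9 genes described here encode receptors of the ERBB family, ligands of the epidermal growth factor (EGF) family and inhibitors of these receptors. They are EGFR, ERBB2 and ERBB3 (receptors), AREG, EREG, TGFA and HBEGF (ligands), and ERRFI1 and LRIG1 (inhibitors). They were chosen as a list by gene symbol, with earlier results of these data known. All 9 were found by Ensembl identifier among the 61806 identifiers of the count table. The cells were HCT116, an established human colorectal carcinoma line, and RNA was sequenced from 9 libraries. In 3 libraries the cells had received a control siRNA, in 3 a first siRNA against ORM1 (siRNA 1) and in 3 a second siRNA against ORM1 (siRNA 2). ORM1 encodes orosomucoid 1, a plasma glycoprotein of the acute phase. All groups shared the parental line, the lipid transfection and the batch value Day 3, and the labels do not say whether replicates were separate cultures, so every p-value rests on variation among libraries that may be technical repeats.

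ERBB receptors are tyrosine kinases at the cell surface. An EGF-family ligand is made as a membrane-anchored precursor, is cut free by a metalloprotease of the ADAM family and binds EGFR or ERBB4, whereas neuregulins bind ERBB3 or ERBB4. The bound receptors pair with each other, ERBB2 pairs without any known ligand of its own, and the pairs signal through RAS and ERK and through PI3K and AKT. ERRFI1 (also called MIG6) binds the EGFR kinase and blocks it, and LRIG1 is a transmembrane protein that promotes degradation of ERBB receptors. In the colon, AREG and EREG are known as EGFR ligands of normal and malignant epithelium, and LRIG1 marks stem and progenitor cells of the crypt.

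The libraries held 60698684 to 71431723 counts each, and every member had at least 376 counts in every library. ORM1 had 63, 56 and 59 counts in control, 0, 0 and 5 after siRNA 1 and 8, 0 and 12 after siRNA 2. Of 10 colon epithelial markers, 6 (EPCAM, CDH1, CDX2, KRT8, KRT18 and KRT19) had a mean above 1 CPM, the usual scaling of a gene's count by the total of its library, while CEACAM5 and CDX1 were at 0 in all libraries. Their summed level was 4261 to 4511 CPM in control, 3595 to 3727 CPM after siRNA 1 and 3573 to 3740 CPM after siRNA 2, and its part in the results below was not tested. Of the fibroblast markers COL1A1 alone, and of the leukocyte markers CD68 alone, had a mean above 1 CPM, and none of the 4 endothelial markers did. The summed levels were 51.9 to 60.3, 48.1 to 50.6 and 40.9 to 44.4 CPM (fibroblast), 9.83 to 10.6, 11.5 to 13.4 and 5.63 to 8.95 CPM (leukocyte) and 1.00 to 1.73, 1.19 to 1.4 and 0.752 to 0.882 CPM (endothelial) in control, siRNA 1 and siRNA 2. These are bulk libraries, in which fewer cells of a type and less RNA per cell cannot be told apart.

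The promoters of the 4 ligands are shown because these genes moved in opposite directions, AREG and EREG upward and TGFA and HBEGF downward. EREG and AREG lie on the plus strand of chromosome 4, 56382 bp apart in the GENCODE release 29 annotation of GRCh38. The windows are those of RefSeq on GRCh38.p14, from 250 bases before to 50 bases after a transcription start, written in the sense of the gene, and a window was held for 8 of the 9 members. They are chr4:74444886-74445185 (plus strand) for AREG, chr4:74364895-74365194 (plus strand) for EREG, chr2:70553777-70554076 (minus strand, the first of 2 TGFA windows) for TGFA and chr5:140346554-140346853 (minus strand) for HBEGF. Capitals mark matches on either strand to 3 words. The cAMP response element is searched as TGACGTCA. Sites of the AP-1 factors are searched as TGANTCA, with any base at the letter N. The TATA box, which places the start of transcription in some promoters, is searched as TATAAA.
AREG: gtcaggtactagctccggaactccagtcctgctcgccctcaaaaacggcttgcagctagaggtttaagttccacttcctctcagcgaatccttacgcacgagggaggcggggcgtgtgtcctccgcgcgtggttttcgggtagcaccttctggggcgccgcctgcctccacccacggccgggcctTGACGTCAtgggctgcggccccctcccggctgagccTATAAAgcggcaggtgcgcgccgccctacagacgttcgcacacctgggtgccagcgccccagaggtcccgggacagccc
EREG: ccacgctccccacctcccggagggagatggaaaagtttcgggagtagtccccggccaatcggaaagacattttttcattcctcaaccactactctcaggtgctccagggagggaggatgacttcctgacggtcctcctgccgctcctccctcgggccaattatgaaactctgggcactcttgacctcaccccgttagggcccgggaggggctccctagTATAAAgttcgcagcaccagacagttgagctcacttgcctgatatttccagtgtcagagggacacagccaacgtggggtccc
TGFA: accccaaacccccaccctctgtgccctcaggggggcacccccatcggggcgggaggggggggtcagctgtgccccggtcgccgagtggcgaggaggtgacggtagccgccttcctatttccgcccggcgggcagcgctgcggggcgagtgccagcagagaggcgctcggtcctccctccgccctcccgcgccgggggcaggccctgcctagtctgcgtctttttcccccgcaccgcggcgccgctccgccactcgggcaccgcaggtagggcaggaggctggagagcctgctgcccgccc
HBEGF: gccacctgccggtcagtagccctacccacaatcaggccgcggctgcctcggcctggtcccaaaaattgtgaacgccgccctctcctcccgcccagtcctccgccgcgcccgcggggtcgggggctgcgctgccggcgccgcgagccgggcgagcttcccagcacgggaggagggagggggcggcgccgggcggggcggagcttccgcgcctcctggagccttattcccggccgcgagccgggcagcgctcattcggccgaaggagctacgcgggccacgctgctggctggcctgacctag
Of these 4 ligands, both that rose held TATAAA, 29 bases before the start in AREG and 32 bases before it in EREG. This word was present in 11.5% of 35116 windows of this length. AREG also held TGACGTCA, 65 bases before the start, a word present in 1.85% of windows. Neither printed window of the ligands that fell held any of these words, of which TGANTCA was present in 7.71% of windows. Both held GGGCGG or its reverse complement (a GC box, present in 45.0% of windows and not in capitals), at 4 places in TGFA and at 5 in HBEGF. AREG held it at 1 place and EREG at none. The second TGFA window, which is not printed, held neither the GC box nor any of the 3 words, and its GC content was 63.0%. LRIG1 held the GC box in its windows 1, 2 and 3. Among the other members, ERBB3 had no window, and ERRFI1 and the second EGFR window did not follow the ligands' pattern in these exact words. ERBB2, which rose after siRNA 1, held the TGANTCA match TGATTCA, 222 bases before the start. LRIG1, which was not called, held TGAGTCA and TGACTCA in its window 4, 166 and 77 bases before the start. EGFR, which fell after siRNA 2, held TATAAA at 2 places and TGANTCA at 2 in the second of its 2 windows. That window lies inside the gene, at 55109589 to 55109888. The first EGFR window held none of the 3 words and had a GC content of 75.3%. It held the GC box 204 and 36 bases before the start and again after it. ERRFI1, which rose, held none of the 3 words and held the GC box 70 bases before the start. Its window also holds TATATATA, which the exact word TATAAA does not match. The 3 words were chosen after the sequences had been seen. The promoters of 2 further ligand genes described below, BTC, which rose, and EGF, which fell after siRNA 2, were not searched. The GC content of the printed windows was 66.3% in AREG, 57.7% in EREG, 75.3% in TGFA and 75% in HBEGF.

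AREG, which encodes amphiregulin, rose after either ORM1 siRNA, with all 6 libraries above the 3 of control. Its level, as CPM scaled by TMM (trimmed mean of M values), was 259, 259 and 261 in control, 464, 471 and 470.0 after siRNA 1, and 401, 404 and 391 after siRNA 2. The 3 groups did not overlap, with siRNA 1 highest. The mean rose from 260 ± 0.69 CPM (SD, n = 3) to 468 ± 4.1 and 399 ± 7.0 CPM, or 1.80-fold and 1.53-fold. By quasi-likelihood F tests in edgeR, Benjamini-Hochberg adjusted over the 20932 genes tested, the log2 changes were 0.85 (SE 0.02) with an adjusted p of 3.68e-10 and 0.62 (SE 0.02) with an adjusted p of 1.31e-08. A gene was called where this adjusted p was below 0.05. AREG (ENSG00000109321) lies at 74445134 to 74455009 of chromosome 4.

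EREG, which encodes epiregulin, was also higher than any control library in every library of both siRNAs. Its level was 467, 491 and 469.9 CPM in control, 721, 723 and 721 CPM after siRNA 1, and 592, 512 and 582 CPM after siRNA 2. The siRNA 1 libraries lay within 3 CPM of each other, whereas replicate 2 of siRNA 2 was closer to control than its group's other libraries. The group means were 476 ± 12.7, 722 ± 1.2 (1.52-fold) and 562 ± 44.0 CPM (1.18-fold). The log2 changes were 0.60 (SE 0.05; adjusted p = 1.23e-06) and 0.24 (SE 0.05; adjusted p = 0.00192) by the same edgeR test. Without that library the siRNA 2 change of EREG was 0.30. EREG (ENSG00000124882) lies at 74365143 to 74388751 of chromosome 4.

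TGFA and HBEGF fell. TGFA encodes transforming growth factor alpha, a ligand of EGFR. Its level was 147, 138 and 136 CPM in control, 101, 100.5 and 97.4 CPM after siRNA 1, and 108, 100.6 and 105 CPM after siRNA 2. Every siRNA library was below every control library, and the siRNA groups overlapped each other. The mean fell from 140 ± 6.1 CPM to 99.7 ± 2.1 and 104.5 ± 3.7 CPM, which by the fit was 71.0% and 74.4% of control. The log2 changes were −0.49 (SE 0.04) and −0.43 (SE 0.04), with adjusted p-values of 1.52e-06 and 7.88e-06 in edgeR's test. TGFA (ENSG00000163235) lies on the minus strand of chromosome 2, at 70447280 to 70554193.

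HBEGF encodes heparin-binding EGF-like growth factor, a ligand of EGFR and ERBB4, and had the lowest counts of the 4 ligands. Its level was 22.6, 24.0 and 24.6 CPM in control, 12.7, 13.8 and 14.3 CPM after siRNA 1, and 14.1, 15.2 and 13.03 CPM after siRNA 2. Both siRNA groups lay below control with no overlap and overlapped each other. The mean fell from 23.7 ± 1.0 CPM to 13.6 ± 0.82 and 14.1 ± 1.1 CPM, or 57.2% and 59.5% of control by the fit. The log2 changes were −0.81 (SE 0.08) and −0.75 (SE 0.08), with edgeR adjusted p-values of 1.33e-05 and 3.14e-05. HBEGF (ENSG00000113070) lies on the minus strand of chromosome 5, at 140332843 to 140346631.

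**Figure D1:**
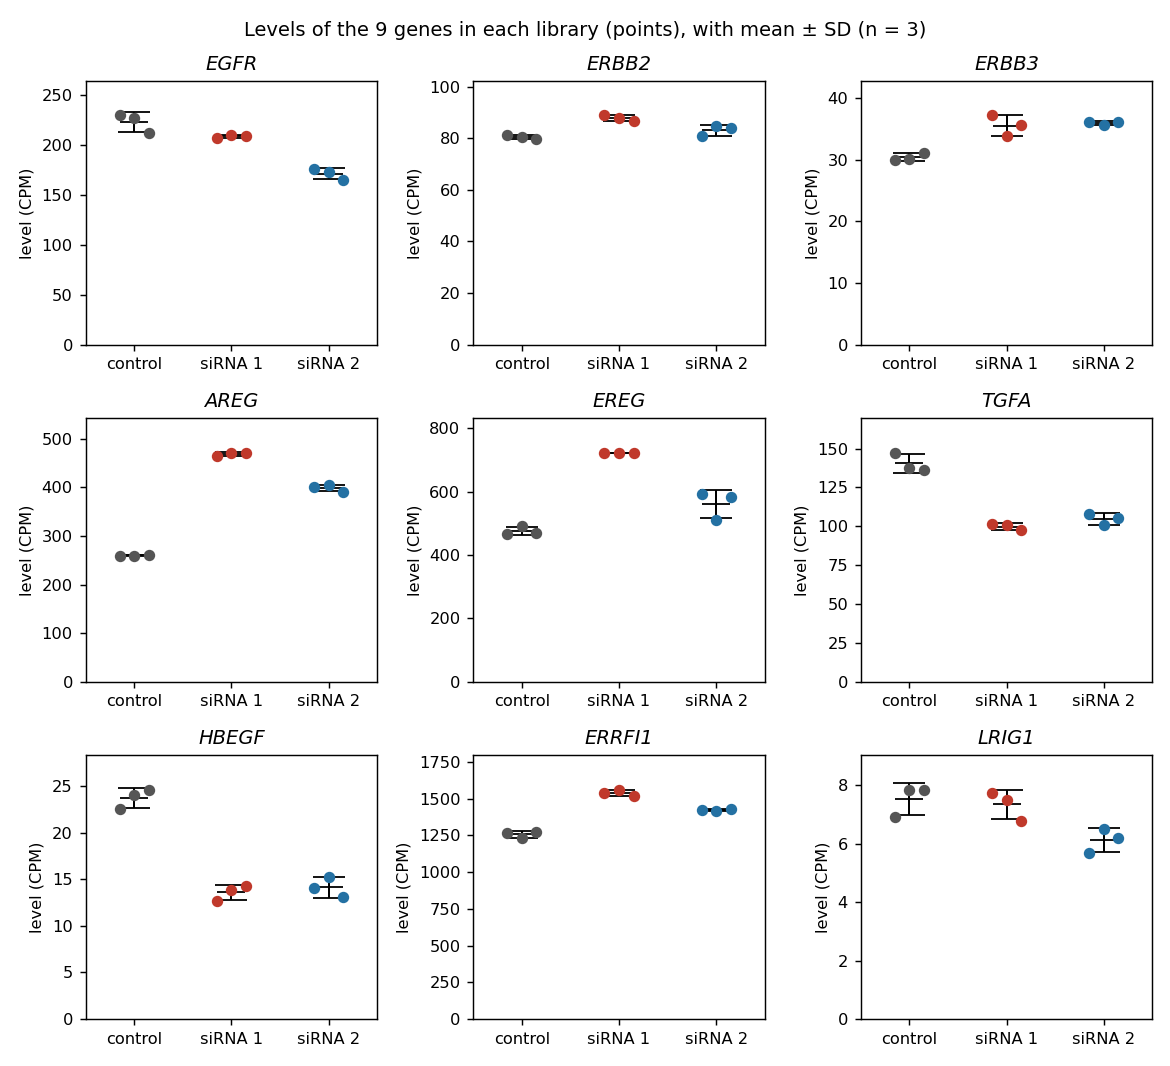
Level of each of the 9 genes (TMM-scaled CPM, axis from 0) in the 3 libraries of each group, with the mean and SD as bars. AREG, EREG and ERRFI1 lie above control under both siRNAs, TGFA and HBEGF below it, and the 3 ERBB2 groups lie between 79.6 and 88.8 CPM.

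The mixture of ligand transcripts therefore differed between groups. To compare genes, each level was divided by the length of the gene's exons in kilobases. The AREG level may depend on how reads of its copy AREGB, absent from the count table, were handled, which was not tested. AREG made up 57.0%, 56.4% and 57.3% of the summed level of the 4 ligands in the control libraries, 65.1%, 65.4% and 65.5% after siRNA 1, and 65.2%, 68.1% and 65.1% after siRNA 2. TGFA made up 10.2% ± 0.46 (SD, n = 3) in control, 4.62% ± 0.11 after siRNA 1 and 5.76% ± 0.11 after siRNA 2. HBEGF went from 2.84% ± 0.12 to 1.03% ± 0.058 and 1.28% ± 0.11, and EREG from 30.1% ± 0.63 to 29.03% ± 0.15 and 26.9% ± 1.7. EREG's share was thus lower under both siRNAs although its level rose. An exact two-sided permutation test of the AREG share gave p = 0.1 for either siRNA against control, the smallest p that 3 against 3 libraries allow. The shares of the 4 ligands sum to a fixed total and are not independent of each other.

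**Figure D2:**
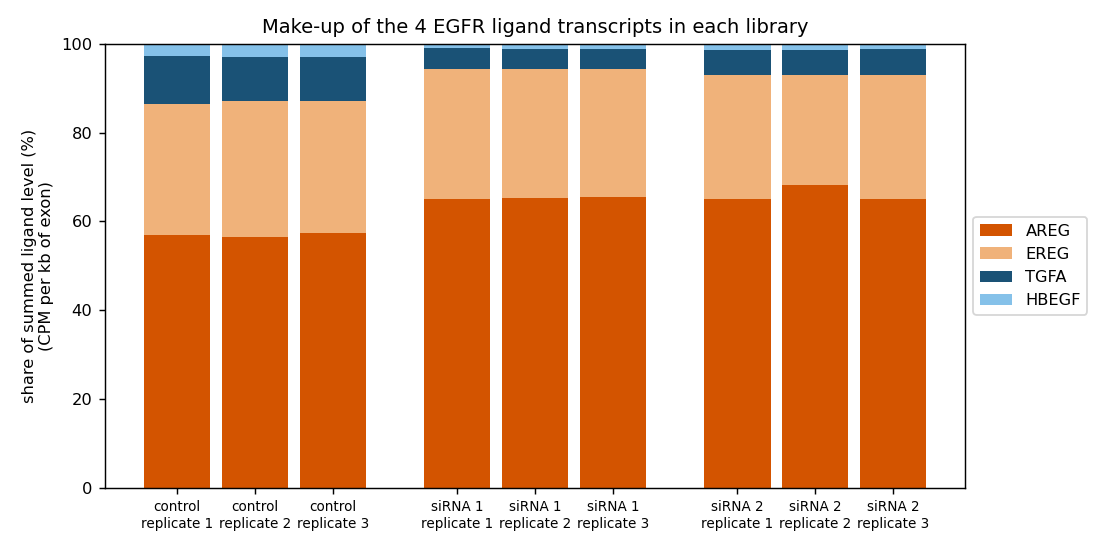
Share (%) of AREG, EREG, TGFA and HBEGF in their summed level (CPM per kb of exon) in each of the 9 libraries, 1 bar per library. The AREG part is at least 65.1% in all 6 ORM1 siRNA libraries and at most 57.3% in the control libraries, and the TGFA and HBEGF parts are narrower under both siRNAs.

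The summed ligand level rose and the EGFR level did not. The sum of the 4 ligands was 277 ± 1.6 CPM per kb in control, 435 ± 2.7 after siRNA 1 and 366 ± 6.5 after siRNA 2. Divided by EGFR within each library, it was 15.1, 15.4 and 16.3 in control, 26.1, 26.1 and 26.2 after siRNA 1, and 26.6, 26.1 and 27.7 after siRNA 2. The groups of this ratio differed between control and either siRNA with no overlap, and both siRNA groups overlapped. AREG over HBEGF, the members with the largest rise and the largest fall, went from 20.1 ± 0.86 to 63.3 ± 3.4 and 51.9 ± 3.2. AREG and EREG together over TGFA and HBEGF together went from 6.67 ± 0.20 to 16.7 ± 0.18 and 13.2 ± 0.084. Both of these ratios set ligands that rose over ligands that fell in the same libraries, so their rise is a description only. These ratios compare transcripts and say nothing of shed protein.

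EGFR, the receptor of all 4 ligands, fell after siRNA 2. Its level was 229, 227 and 212 CPM in control, 207, 210.0 and 208 CPM after siRNA 1, and 175.5, 173 and 165 CPM after siRNA 2. The siRNA 1 libraries lay just below the lowest control library, and the siRNA 2 libraries below all others. The mean was 223 ± 9.5 CPM in control, 208 ± 1.5 CPM after siRNA 1 and 171 ± 5.7 CPM after siRNA 2. The log2 change after siRNA 2 was −0.38 (SE 0.04; edgeR adjusted p = 1.08e-05), or 76.8% of control. Under siRNA 1 the log2 change of −0.10 did not pass the test (95% interval −0.17 to −0.02; adjusted p = 0.0627), and it passed without control replicate 3 (−0.13, adjusted p = 0.0162) and without siRNA 2 replicate 3 (−0.10, adjusted p = 0.0455), as well as with DESeq2 (−0.10, adjusted p = 0.0223), with only the groups compared (−0.10, adjusted p = 0.0445) and with the replicate number as a block (−0.09, adjusted p = 0.0325). These were 5 of 16 alternatives run. The highest adjusted p of the 16 was 0.202, in edgeR's test without control replicate 1 (−0.07). EGFR (ENSG00000146648) is on chromosome 7, plus strand, from 55019021 to 55211628.

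ERBB3, the receptor of neuregulins with a weak kinase, rose under both siRNAs. Its level was 29.95, 30.1 and 31.15 CPM in control, 37.2, 33.8 and 35.6 CPM after siRNA 1, and 36.1, 35.6 and 36.15 CPM after siRNA 2. Every siRNA library was above every control library, and the siRNA groups overlapped. The fold was 1.17 and 1.18, with log2 changes of 0.23 (SE 0.05; adjusted p = 0.00355) and 0.24 (SE 0.05; adjusted p = 0.00261) in edgeR's test. Divided by EGFR on the length-scaled level, ERBB3 went from 0.189 ± 0.012 to 0.236 ± 0.013 and 0.291 ± 0.011. ERBB3 (ENSG00000065361) is on chromosome 12, plus strand, from 56076799 to 56103505.

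ERBB2, the receptor without a known ligand and an amplified oncogene in some carcinomas, had the smallest change among the 3 receptors in the mean of both siRNAs. Its level was 81.2, 80.25 and 79.6 CPM in control, 88.8, 87.9 and 86.6 CPM after siRNA 1, and 80.7, 84.55 and 84.1 CPM after siRNA 2. The siRNA 1 libraries lay above control, and the siRNA 2 libraries overlapped it. ERBB2 rose after siRNA 1, by 0.13 on the log2 scale (SE 0.03; edgeR adjusted p = 0.00714), and did not pass the test after siRNA 2 (0.05, 95% interval −0.02 to 0.12; adjusted p = 0.294). The call for the mean of both siRNAs (0.09, adjusted p = 0.0236) was lost without control replicate 2 or 3, siRNA 1 replicate 1 or siRNA 2 replicate 2 or 3, at adjusted p-values of 0.0705, 0.0855, 0.0518, 0.0581 and 0.0576. ERBB2 (ENSG00000141736; chromosome 17, plus strand, 39687914 to 39730426) shares annotated exonic sequence with PGAP3 and MIEN1 of the opposite strand, whose counts came to 12.4% and 25.9% of its own. As the strand setting of the counting is not given in the sources used here, reads of such pairs may not be told apart. Neither neighbour passed the test after siRNA 1, with log2 changes of −0.10 (adjusted p = 0.522) for PGAP3 and −0.27 (adjusted p = 0.0571) for MIEN1.

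ERRFI1, the kinase-binding inhibitor of EGFR, rose, and LRIG1 did not pass the test with either siRNA. The level of ERRFI1 was 1266, 1232 and 1277 CPM in control, 1539, 1562 and 1518 CPM after siRNA 1, and 1425, 1417 and 1428 CPM after siRNA 2. The 3 groups did not overlap, in the same order as for AREG. The fold was 1.22 and 1.13, with log2 changes of 0.29 (SE 0.02) and 0.18 (SE 0.02) and edgeR adjusted p-values of 1.04e-06 and 7.57e-05. Divided by EGFR on the length-scaled level, ERRFI1 went from 16.9 ± 0.97 to 22.1 ± 0.27 and 24.9 ± 0.91. Divided by the summed ligands, it went the other way, from 1.08 ± 0.027 to 0.846 ± 0.012 and 0.929 ± 0.015. ERRFI1 (ENSG00000116285) lies on the minus strand of chromosome 1, at 8004404 to 8026308.

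LRIG1 was the member with the lowest level. It was at 6.92, 7.85 and 7.83 CPM in control, 7.74, 7.51 and 6.79 CPM after siRNA 1, and 5.70, 6.50 and 6.20 CPM after siRNA 2. The siRNA 1 libraries overlapped control, and the siRNA 2 libraries lay below both other groups. The log2 changes were −0.04 (95% interval −0.28 to 0.20; adjusted p = 0.854) after siRNA 1 and −0.30 (95% interval −0.54 to −0.06; adjusted p = 0.0686) after siRNA 2 by edgeR. The latter was called by DESeq2 (−0.30, adjusted p = 0.0449) and with library totals in place of TMM (−0.33, adjusted p = 0.0459). LRIG1 (ENSG00000144749; chromosome 3, minus strand, 66378797 to 66501263) shares annotated exonic sequence with SLC25A26 of the opposite strand, which held 240% of its counts and passed no test (adjusted p = 0.226 and 0.693).

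Against control, 7 of the 9 members were called after siRNA 1 (5 higher, 2 lower) and 7 after siRNA 2 (4 higher, 3 lower), beside 30.5% and 26.7% of all genes tested. In the mean of both siRNAs 8 of 9 were called (5 higher, 3 lower), beside 31.5%. Among the 11778 genes with a mean of at least 5 CPM, as all members had, the shares called were 47.1%, 42.6% and 48.9%. The median log2 change of the members was 0.13 after siRNA 1 and 0.05 after siRNA 2, against 0.01 and −0.003 over all genes tested, since the members moved in both directions. Without overlap between the libraries of control and siRNA 1, and of control and siRNA 2, were 8 of 9 members each time, beside 43.7% and 39.2% of all genes. Both comparisons use the same 3 control libraries. The members were chosen with earlier results of these data known, so their excess over these shares is a description only. HBEGF and AREG had the largest changes of the members, and 11.5% and 10.3% of tested genes had a larger change, up or down, after siRNA 1. For the other members called after siRNA 1 this share was 18.7% for EREG, 24.3% for TGFA and 42.2% for ERRFI1. It was 51.5% for ERBB3 and 69.7% for ERBB2.

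The siRNAs differed in 4 of the 9 members, all higher after siRNA 1, beside 17.9% of all genes tested and 29% of those with at least 5 CPM. The log2 difference between siRNA 1 and siRNA 2 was 0.36 (SE 0.05) for EREG, 0.28 (SE 0.04) for EGFR, 0.23 (SE 0.02) for AREG and 0.11 (SE 0.02) for ERRFI1, with edgeR adjusted p-values of 2e-04, 0.000192, 4.24e-05 and 0.00329. For the other members the difference did not pass the test. Its 95% interval was −0.15 to 0.02 for TGFA, −0.23 to 0.12 for HBEGF, −0.12 to 0.09 for ERBB3, 0.01 to 0.15 for ERBB2 and 0.02 to 0.50 for LRIG1. Between the siRNA groups 6 members did not overlap, beside 34.3% of all genes.

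**Figure D3:**
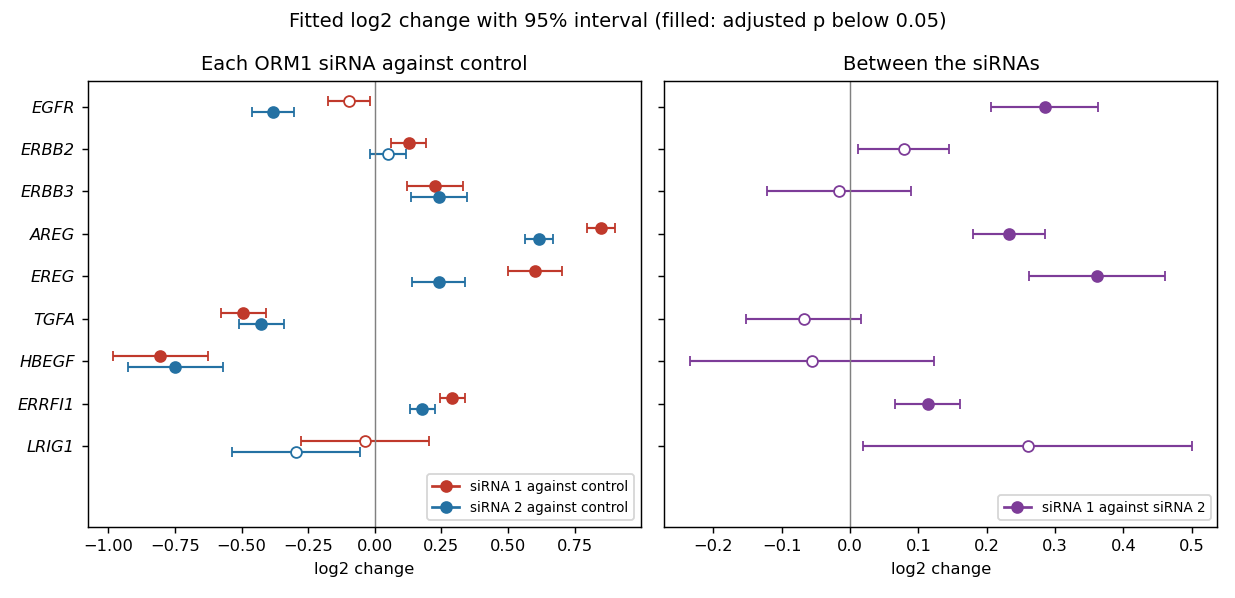
Fitted log2 change of each member with its 95% interval, for each ORM1 siRNA against control (left) and for siRNA 1 against siRNA 2 (right); filled points have an adjusted p below 0.05. AREG has the largest rise (0.85 and 0.62) and HBEGF the largest fall (−0.81 and −0.75), and on the right EREG, EGFR, AREG and ERRFI1 are filled.

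On the length-scaled level, ERRFI1 and the ligands AREG and EREG stood above the receptors in every group. In control the means were 300.5 ± 5.6 CPM per kb for ERRFI1, 158 ± 0.42 for AREG, 83.3 ± 2.2 for EREG, 28.3 ± 1.2 for TGFA, 17.8 ± 0.76 for EGFR, 7.86 ± 0.34 for HBEGF, 7.79 ± 0.075 for ERBB2, 3.36 ± 0.072 for ERBB3 and 1.07 ± 0.076 for LRIG1. HBEGF and ERBB2 overlapped in control, and the other pairs of neighbours in this order did not overlap between their control libraries. Of the 20249 tested genes with an annotated length, 99.6% lay below ERRFI1, 99.2% below AREG and 98.3% below EREG, whereas 37.2% lay below LRIG1. Under both siRNAs HBEGF stood below ERBB2, at 4.50 ± 0.27 and 4.68 ± 0.36 CPM per kb beside 8.502 ± 0.11 and 8.05 ± 0.21 for ERBB2. With the longest annotated transcript as the length, ERBB2 was above HBEGF in control as well, at 16.3 against 9.94 CPM per kb, because its annotated exons add up to 10321 bp and its longest transcript to 4930 bp.

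**Figure D4:**
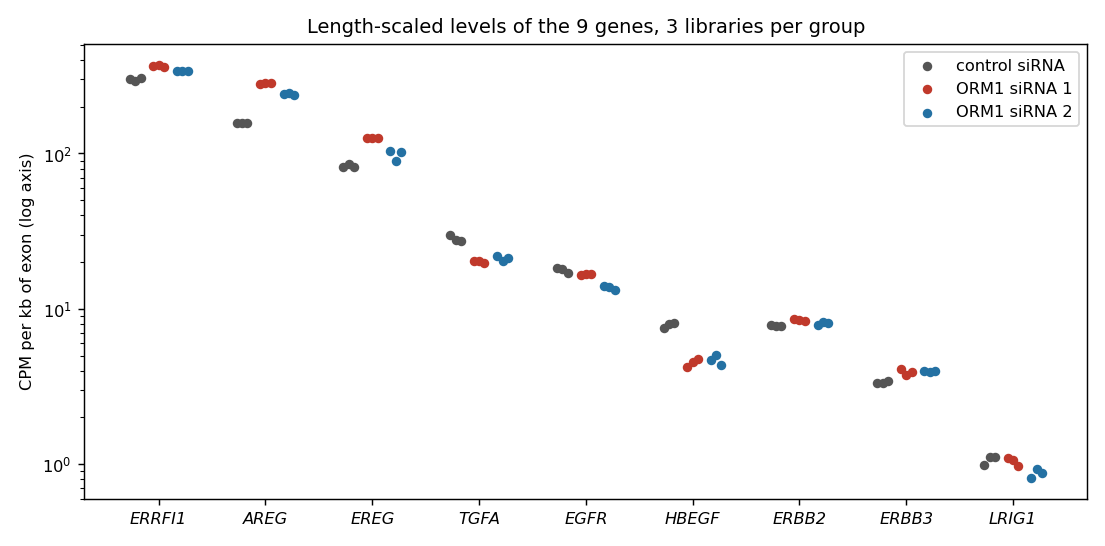
Length-scaled level (CPM per kb of exon, log axis) of the 9 genes in every library, ordered by the control mean and coloured by group. ERRFI1, AREG and EREG stand at 81.8 or more CPM per kb in control and LRIG1 at 1.07, and only HBEGF and ERBB2 overlap among neighbours in control.

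The other EGF-family genes were low. Of the 11 ligands of the family, 10 passed the count filter. In the mean of both siRNAs 3 rose (AREG, EREG and BTC) and 3 fell (TGFA, HBEGF and EGF), beside 31.5% of all genes tested. Of the tested ligands that are not members, BTC and EGF alone were called in it. After each siRNA alone 3 rose and 3 fell as well, beside 30.5% and 26.7% of all genes tested. NRG2 took the place of EGF among those that fell after siRNA 1. The median log2 change of these 10 was 0.11 after siRNA 1 and 0.14 after siRNA 2 but −0.14 in the mean of both, so the sign of the median depends on the comparison. BTC, the ligand betacellulin, rose from 2.89 ± 0.071 CPM to 5.69 ± 0.88 and 4.09 ± 0.29 CPM, with adjusted p-values of 0.000251 and 0.0212. EGF itself was at 1.26 ± 0.30 CPM in control, 1.29 ± 0.16 CPM after siRNA 1 and 0.403 ± 0.077 CPM after siRNA 2, where it fell (log2 change −1.63, SE 0.27; adjusted p = 0.000678). The siRNAs differed in EGF by 1.67 (SE 0.27; adjusted p = 0.00104). The neuregulin gene NRG2 fell after siRNA 1, from 2.05 ± 0.21 to 1.11 ± 0.19 CPM (adjusted p = 0.00366), and was at 2.14 ± 0.13 CPM after siRNA 2 (adjusted p = 0.874). NRG1 was at 3.51 ± 0.27, 4.003 ± 0.89 and 4.10 ± 1.3 CPM, NRG4 at 1.16 ± 0.28, 0.926 ± 0.17 and 1.49 ± 0.21 CPM and EPGN, which encodes epigen, at 0.414 ± 0.21, 0.471 ± 0.22 and 0.240 ± 0.093 CPM, with no call. NRG3 had 0 counts in every library, and ERBB4, the fourth receptor, had 0 to 28. Low values of this table were more often 4 (11894 values) than 3 (6787) or 5 (4317), so counts of this size may not be single fragments.

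Among genes that cut or escort the ligand precursors, ADAM19 and ADAM15 rose and FRMD8 and FURIN fell in the mean of both siRNAs. Of 12 listed genes 10 were tested, and 2 rose and 5 fell, where 31.5% of all tested genes and 48.9% of those with at least 5 CPM were called. The counts were 2 and 3 after siRNA 1, and 3 and 5 after siRNA 2, beside 47.1% and 42.6% of genes with at least 5 CPM called. The median log2 change was −0.04 after siRNA 1, −0.12 after siRNA 2 and −0.10 in the mean of both. ADAM19, a metalloprotease known to cut neuregulin, rose from 185 ± 4.6 CPM to 404 ± 5.5 CPM after siRNA 1 and 321 ± 1.6 CPM after siRNA 2. Its log2 changes were 1.12 (SE 0.03; adjusted p = 8.63e-11) and 0.79 (SE 0.03; adjusted p = 4.04e-09). ADAM15, another metalloprotease of the family, rose from 111 ± 2.7 CPM to 159 ± 4.3 and 189 ± 8.25 CPM. FRMD8, which stabilises the iRhom proteins that escort ADAM17, fell from 56.0 ± 2.4 CPM to 45.6 ± 1.6 and 40.55 ± 3.5 CPM. FURIN, which removes the inhibitory part of ADAM precursors, was at 130 ± 2.0 CPM in control and fell to 93.0 ± 1.6 CPM after siRNA 2 (adjusted p = 1.5e-06), while 123 ± 5.3 CPM after siRNA 1 did not pass (adjusted p = 0.138). ADAM17 and ADAM10, named after their values were seen because they are the main enzymes that release EGFR ligands, fell by 0.20 and 0.21 on the log2 scale in the mean of both siRNAs (adjusted p = 0.000229 and 0.000346).

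Among 12 genes listed as inhibitors of receptor signalling, a role not tested here, 5 rose and 1 fell after siRNA 1. After siRNA 2, 1 rose and 2 fell. Of all genes with at least 5 CPM, 47.1% were called after siRNA 1 and 42.6% after siRNA 2. The median log2 changes of the 12 listed genes were 0.06 and −0.04. In the mean of both siRNAs 3 rose and 2 fell (median −0.005), beside 48.9% of genes with at least 5 CPM called. Besides ERRFI1, the rises in the mean of both were CBLC, an epithelial ubiquitin ligase of the CBL family, with log2 changes of 0.48 (adjusted p = 0.000471) and 0.20 (adjusted p = 0.0741), and LRIG3, a relative of LRIG1, with 0.41 (adjusted p = 0.0112) and 0.29 (adjusted p = 0.0656). The falls were PTPN1, a tyrosine phosphatase, with −0.35 (adjusted p = 3.4e-06) and −0.19 (adjusted p = 0.000683), and CBL, with −0.10 (adjusted p = 0.0948) and −0.13 (adjusted p = 0.0383). CBL is the ubiquitin ligase that marks activated EGFR for degradation. LRIG3, CBLC and CBL were each called under 1 siRNA alone, and of these CBLC alone differed between the siRNAs (0.28, adjusted p = 0.0252).

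Genes of the relays below the receptors were called in both directions. Of 20 adaptor and RAS-ERK genes, 4 rose and 7 fell after siRNA 1 and again in the mean of both siRNAs, and 2 rose and 4 fell after siRNA 2, beside 47.1%, 48.9% and 42.6% of genes with at least 5 CPM. The median log2 changes were −0.08, −0.10 and −0.03 in that order. MAP2K1, the kinase MEK1, fell from 126 ± 2.8 CPM to 99.8 ± 2.1 and 97.2 ± 1.9 CPM (adjusted p = 5.67e-06 and 3.85e-06). The docking proteins GAB2 and GAB1 went in opposite directions after siRNA 1, with log2 changes of 0.69 (adjusted p = 0.000966) and −0.53 (adjusted p = 0.00247), and were not called after siRNA 2 (0.33 and −0.29, adjusted p = 0.0622 and 0.0671). HRAS was at −0.30 (adjusted p = 0.000569) and −0.08 (adjusted p = 0.284). Of 13 PI3K-AKT genes, 1 rose and 1 fell after siRNA 1, 2 rose and 3 fell after siRNA 2, and 2 rose and 4 fell in the mean of both, beside the same shares. The median was −0.04, −0.11 and −0.08. PIK3R2, a regulatory subunit of PI3K, had log2 changes of −0.17 (adjusted p = 0.253) and −0.62 (adjusted p = 0.000845), and the catalytic subunit gene PIK3CB had −0.25 (adjusted p = 0.000259) and −0.22 (adjusted p = 0.000778). AKT1, a kinase gene of this relay, rose by 0.12 (adjusted p = 0.0203) and 0.15 (adjusted p = 0.0071).

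Of 10 genes commonly read as output of ERK signalling, 2 rose and 5 fell after siRNA 1, and 6 fell and 0 rose after siRNA 2, beside 47.1% and 42.6% of genes with at least 5 CPM called. The median log2 change was −0.10 and −0.20. In the mean of both siRNAs 2 rose and 4 fell (median −0.14), and both that rose in it, DUSP4 and PHLDA1, fell after siRNA 2. The largest change was in CCND1, which encodes cyclin D1, at −1.01 and −0.92 (adjusted p = 5.65e-11 and 2.33e-10). EPHA2, an ephrin receptor, was at −0.40 and −0.68 (adjusted p = 8.5e-07 and 3e-08), and the ETS factor ETV5 was at −0.40 and −0.28 (adjusted p = 7.12e-06 and 0.000169). DUSP4, a phosphatase of ERK, rose after siRNA 1 from 213 ± 2.6 to 324 ± 5.5 CPM and fell after siRNA 2 to 192 ± 3.6 CPM (adjusted p = 1.41e-08 and 0.00145), and this difference between the siRNAs was called (0.76, adjusted p = 2.78e-08). PHLDA1, named after its values were seen, had log2 changes of 0.27 (adjusted p = 5.53e-06) and −0.10 (adjusted p = 0.0103).

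**Figure D5:**
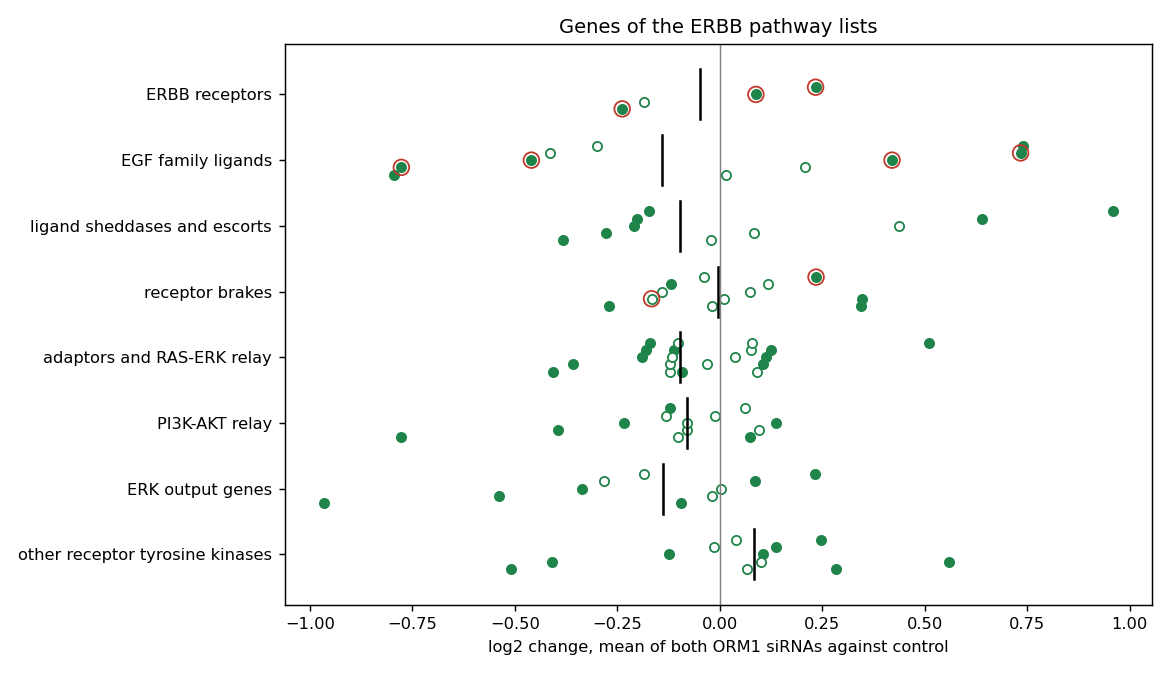
Log2 change in the mean of both ORM1 siRNAs against control for every tested gene of the pathway lists (filled: adjusted p below 0.05; black bar: median of the list; red ring: a member). The ligands run from −0.80 (EGF) to 0.74 (BTC), ADAM19 stands at 0.96 among the sheddases and CCND1 at −0.97 among the ERK output genes.

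Over the 9 libraries, the genes with the pattern of log2 CPM most like a member's were found by Pearson's r among the 11546 other named genes with at least 5 CPM. These r are dominated by the 3 group means and are given as a description. For AREG the first was ADAM19 (r = 0.998), followed by WNT16 (0.998), a WNT ligand, and for ERRFI1 the first were TEX19 (0.998), a germ cell gene, and the ion channel gene MCOLN3 (0.995). For TGFA they were the laminin gene LAMB2 (0.995) and FGFR1 (0.994), for HBEGF MYADM (0.994) and PDLIM7 (0.991), and for EREG REEP3 (0.992) and MBNL1 (0.989). For EGFR they were RAB2B (0.991) and EAF1 (0.99), for ERBB3 EEF2K (0.983) and SEPTIN8 (0.979), for ERBB2 FNBP1L (0.979) and KNOP1 (0.976), and for LRIG1 GGT1 (0.951) and PTGS1 (0.946). Among the members, AREG and ERRFI1 were most alike (0.982), TGFA and HBEGF ran together (0.936), and AREG ran opposite to TGFA (−0.975).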

How the data were processed

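RNA-seq gene counts of 9 libraries were used. Per the labels the deposited values are raw counts per Ensembl gene, and per the submitters' processing notes the build was hg19. For the aligner, counter, annotation and strand setting: not given in the sources used here. Symbols came from a table of current gene records (42054 identifiers matched), and lengths and coordinates from GENCODE release 29 on GRCh38, a build other than that named for the counts. Genes passing edgeR's filterByExpr (20932; minimum count 10) were scaled by TMM and fitted in 1 quasi-likelihood model of the 3 groups (edgeR 4.0.16, R 4.3.3), with Benjamini-Hochberg adjustment over all tested genes and calls at an adjusted p below 0.05. The SE is the log2 change over the square root of F, and 95% intervals use it with the test's total degrees of freedom. The test was checked on simulated counts. The length of a gene is the union of its annotated exons. Alternatives were DESeq2 1.42.0, limma-voom (limma 3.58.1), other scaling and filters, only the groups compared, the replicate number as a block, another length and each library left out in turn. Permutation tests used scipy 1.17.1 and figures matplotlib 3.10.9.

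The members and lists were chosen with earlier results of these data known, and the sequence words after the promoter sequences had been seen. Besides the members, the named genes were the other ERBB receptors and EGF-family ligands, up to 4 genes of each list with the largest change called in the mean of both siRNAs, and the genes most like each member. Some genes that met this rule are not reported here.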

Additional observations from a re-analysis of the deposited data

How the results depend on the processing

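The counts of called genes and of called members stayed within 1.5 times of the values reported under every alternative run, and the calls of AREG, EREG, TGFA, HBEGF, ERBB3 and ERRFI1 against control held under all of them. With library totals in place of TMM, which moved the median of all genes by at most 0.03 (log2), ERBB2 was no longer called in the mean of both siRNAs (0.07, adjusted p = 0.0695), was called between the siRNAs (0.10, adjusted p = 0.0393), LRIG1 was called after siRNA 2 (adjusted p = 0.0459) and the difference of ERBB3 between the siRNAs changed sign (0.0084). That difference was also above 0 without siRNA 1 replicate 2 (0.0179; range −0.0504 to 0.0179 with a library left out), and the LRIG1 change after siRNA 1 was above 0 without siRNA 1 replicate 3 (0.0132; range −0.0937 to 0.0132). None of these 3 values passed a test in either form. DESeq2 called LRIG1 after siRNA 2 (adjusted p = 0.0449) and EGFR after siRNA 1 (adjusted p = 0.0223), and EGFR was also called with only the groups compared (0.0445). With the longest transcript as the length, 7 of the 9 members kept their place in the control order and the AREG share rose by 8.10 and 8.93 percentage points, against 8.42 and 9.22. The cause was not tested.

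Same-numbered replicates did not deviate together, with correlations of −0.095 to 0.158 over 11778 genes, so the numbers were not taken as pairs. Between libraries of different number and group the correlations ran from −0.255 to 0.309. The highest were control replicate 2 with siRNA 2 replicate 3 (0.309), control replicate 1 with siRNA 2 replicate 2 (0.28) and control replicate 3 with siRNA 2 replicate 1 (0.279). What these libraries share was not tested, and no model paired them. With the replicate number as a block, 6452, 5589, 6631 and 3794 genes were called against 6389, 5597, 6595 and 3752 (siRNA 1, siRNA 2 and their mean against control, and siRNA 1 against siRNA 2), and EGFR was called after siRNA 1 (−0.09, adjusted p = 0.0325). Depth limits the genes under about 1 CPM, such as ERBB4 and EPGN.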

Other observations

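Of 12 other receptor tyrosine kinases, 7 rose and 3 fell after siRNA 1, and 3 rose and 4 fell after siRNA 2, beside 47.1% and 42.6% of genes with at least 5 CPM called. The median log2 change was 0.19 after siRNA 1 and −0.01 after siRNA 2. In the mean of both siRNAs 5 rose and 3 fell, with a median of 0.08, beside 48.9% called. FGFR3, a fibroblast growth factor receptor, rose from 36.7 ± 2.1 CPM (SD, n = 3) to 56.2 ± 1.1 after siRNA 1 and 52.0 ± 2.5 CPM after siRNA 2, and FGFR4 rose from 75.8 ± 2.6 to 94.4 ± 3.4 and 90.0 ± 0.75 CPM. FGFR1 fell from 178 ± 5.4 to 123 ± 1.5 and 127 ± 4.0 CPM, with edgeR adjusted p-values of 2.44e-07 and 8.94e-07. AXL, a receptor of mesenchymal and migrating cells, fell from 111 ± 2.8 to 78.9 ± 0.90 and 89.0 ± 0.78 CPM, and this fall was larger after siRNA 1 by 0.17 on the log2 scale (adjusted p = 0.00169).

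EGFR-AS1, an antisense gene that shares exonic sequence with EGFR, held 5 to 65 counts a library and was at a log2 change of −1.60 in the mean of both siRNAs (SE 0.54; adjusted p = 0.0414), but was called after neither siRNA alone (−1.91 and −1.29, adjusted p = 0.051 and 0.184). Its counts came to 0.144% of those of EGFR, and the strand setting of the counting is not given in the sources used here.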
